A study of Mus musculus with 4 samples.

Results

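Regulators of G-protein signaling, the proteins encoded by the Rgs genes, were examined in hematopoietic stem and progenitor cells of mice with and without the nuclear pore protein Nup358. The account covers 7 genes, Rgs1, Rgs2, Rgs3, Rgs10, Rgs14, Rgs18 and Rgs19, taken by their symbols from the 27998 genes in the files. They were selected on measured values, since Rgs1 and Rgs10 had fallen in the knockout in these same counts, so every knockout minus control value of the 7 genes is a description and carries no test. The levels across cell types were not used to choose them. The marker limits that set the cell types were chosen after levels of these genes at trial limits had been seen. The p-values between cell types carry that limit. RNA of single LSK cells, the Lin-Sca1+cKit+ fraction of bone marrow that holds stem cells and multipotent progenitors, was counted in 4 libraries. The control group, called wild-type in the labels, held 2 libraries from adult Nup358 fl/fl mice without a Cre transgene, and the Nup358 knockout group held 2 libraries from adult Nup358 fl/fl CreERT2 mice. Mice of both groups carried the floxed alleles and received tamoxifen, each library pooled several marrows, and the control mice lacked CreERT2, so the presence of the Cre and the loss of Nup358 cannot be told apart. The CreERT2 transgene sat in the Rosa26 locus and was active in all tissues, so the deletion was not limited to blood cells.

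Receptors coupled to G proteins switch on an alpha subunit by loading it with GTP. RGS proteins bind the active alpha subunit and speed up GTP hydrolysis, which ends the signal and sets how strongly and how long a cell responds to chemokines, lipids, thrombin and other ligands. In bone marrow such receptors hold stem and progenitor cells in their niche and steer mature cells out of it. Rgs1, Rgs2, Rgs3 and Rgs18 belong to one subfamily of mostly small RGS proteins, of which Rgs1 is known for restraining chemokine receptor signaling in lymphocytes, Rgs2 for its preference for Gq, Rgs3 for acting on both Gi and Gq, and Rgs18 for its place in megakaryocytes and platelets. Rgs10, a short protein that acts on Gi, and Rgs14, which also binds Ras and Rap proteins and inactive Gi alpha subunits, belong to a second subfamily, and Rgs19, also called GAIP, which binds Gi alpha subunits at membranes, belongs to another.

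On GRCm38, the build of the files, Rgs2 (ENSMUSG00000026360, chr1:143999338-144004161), Rgs1 (ENSMUSG00000026358, chr1:144242296-144249242) and Rgs18 (ENSMUSG00000026357, chr1:144752683-144775435) lay on the minus strand of chromosome 1 within 776 kb. Of the genes in the files, 5 lay in that span, and all 5 were Rgs genes, the other two being Rgs13 and Rgs21, which did not pass the filter on low counts. Rgs3 (ENSMUSG00000059810, chr4:62559847-62704001, plus strand), Rgs10 (ENSMUSG00000030844, chr7:128373621-128418758, minus strand), Rgs14 (ENSMUSG00000052087, chr13:55369732-55384687, plus strand) and Rgs19 (ENSMUSG00000002458, chr2:181688419-181693977, minus strand) were single. All 7 are protein coding.

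Rgs2 and Rgs10 are 2 of the 4 members with a promoter in the RefSeq promoter table used here (GRCm38.p6), and their promoters are shown because both genes were lower in the knockout libraries. The 250 bases before the annotated start are given 5′ to 3′ in gene direction, for Rgs2 at chr1:144004150-144004399 and for Rgs10 at chr7:128418173-128418422, both on the minus strand. The RefSeq starts of both genes lie inside the gene spans given above. Capitals mark matches on either strand to TGACG, part of the cyclic AMP response element, to the AP-1 site TGANTCA, to CCAAT, to the GC box motif GGGCGG or to the TATA box motif TATAAA.
Rgs2: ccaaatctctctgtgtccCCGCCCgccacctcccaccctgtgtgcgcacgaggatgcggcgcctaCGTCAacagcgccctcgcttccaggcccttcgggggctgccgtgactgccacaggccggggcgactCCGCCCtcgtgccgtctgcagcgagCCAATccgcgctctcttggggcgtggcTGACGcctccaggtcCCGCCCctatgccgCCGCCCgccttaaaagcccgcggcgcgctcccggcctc
Rgs10: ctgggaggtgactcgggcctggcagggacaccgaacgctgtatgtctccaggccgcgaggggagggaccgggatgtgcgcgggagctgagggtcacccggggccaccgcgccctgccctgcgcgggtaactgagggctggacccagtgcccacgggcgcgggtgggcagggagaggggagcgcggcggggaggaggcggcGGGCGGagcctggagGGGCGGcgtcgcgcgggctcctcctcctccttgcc
The Rgs2 promoter held TGACG at 2 places, the first base of the matched stretch lying 185 and 67 bases before the start, together with 1 CCAAT and 4 GGGCGG matches, of which none overlapped another. The Rgs10 promoter held 2 GGGCGG matches and none of the other 4 motifs. Among all 32851 promoters of the same table and length, TGACG was found in 17.8%, TGANTCA in 6.75%, CCAAT in 33.8%, GGGCGG in 32.7% and TATAAA in 12.4%. These matches describe the letters alone.

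The libraries shared cell barcodes, and this bears on every level below. Of 25242 deposited barcodes, 6680 sequences occurred in more than 1 library, and 10936 barcodes (43.3%) had at least 3 times as many UMIs, that is counted RNA molecules, under the same sequence in another library. The share ran from 14.8% in control replicate 1 to 81.8% in control replicate 2. These copies were left out, which kept 14041 cells with 18846887 to 59033602 UMIs per library and medians of 6251 to 17707 UMIs per cell in a library. The fits of knockout against control, of the gates against stem-like cells and of gate by genotype were computed again with the copies kept. The levels, the knockout values within single gates, the groups by immediate early UMIs and the correlations were computed only with the copies left out. Kit and Ly6a, the genes of the sorted markers cKit and Sca1, were found in every library, Kit at 73.3 to 103 and Ly6a at 133 to 317 CPM, a gene's UMIs scaled to a common library total, which is the unit of all levels given here. Ranbp2, the gene of Nup358, was at 127 and 101 CPM in the control and at 124 and 126 in the knockout libraries (log2 0.09 ± 0.15), but 3′ counts do not read the deleted exon and so check nothing about the deletion.

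Cells were sorted by lists of marker genes that hold no Rgs gene. Stem-like cells (1537 cells, led by Hlf, Mecom and Procr), neutrophil-primed cells (1997, led by Elane and Ms4a3), megakaryocyte-primed cells (497, Pf4 and Gp1bb), erythroid-primed cells (242, globin genes and Car1), lymphoid-primed cells (474, Dntt and Il7r) and B cell-like cells (398, Cd79a and Vpreb1) were set apart from unprimed cells, whose dividing part was kept separately as mitotic unprimed cells. A further gate of 304 cells, taken by Irf8, Csf1r, Ly86, F13a1, Ccr2 and Siglech, was led by Siglech and MHC class II genes with only 1 of its own markers among its 10 leading genes, and is called the Irf8-list gate. Its make-up differed between the libraries, with Siglech at 9.05 CPM in control replicate 1 and 393 and 549 in the knockout libraries, the progenitor gene Mpo at 1549.9 against 387 and 24.0, and Ly6a at 90.5 against 751 and 909.9, genes named after their values were seen. The 57 basophil and mast-primed cells reached 20 cells in 1 library and were not tested. Neutrophil-primed cells made up 21.9% and 11.6% of the control libraries against 4.66% and 1.93% of the knockout libraries, and B cell-like cells 0.166% and 0.75% against 6.73% and 7.86%. In summed counts, fewer cells of a type and less RNA per cell cannot be told apart.

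In all LSK cells together, Rgs1, Rgs2 and Rgs10 were lower in the knockout, while Rgs3, Rgs14, Rgs18 and Rgs19 differed far less between the groups. Rgs1 stood at 199.7 and 328 CPM in control replicates 1 and 2 and at 78.3 and 78.7 in knockout replicates 1 and 2, from 2564 to 11787 UMIs per library. Rgs2 stood at 235 and 243 in the control and 94.1 and 118 in the knockout libraries. Rgs10 was at 42.0 and 34.0 in the control and at 14.9 and 14.6 in the knockout libraries. For each of these 3 genes both knockout libraries lay below both control libraries, with Rgs1 showing the widest gap between the controls, and 24.5% of the 13779 genes tested did the same, so that not overlapping is by itself common with 2 libraries per group. The fitted knockout minus control values on the log2 scale were −1.80 ± 0.26 for Rgs1 (SE, n = 2 libraries per group), −1.21 ± 0.17 for Rgs2 and −1.41 ± 0.15 for Rgs10, or 3.47-, 2.31- and 2.66-fold lower levels.

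**Figure D1:**
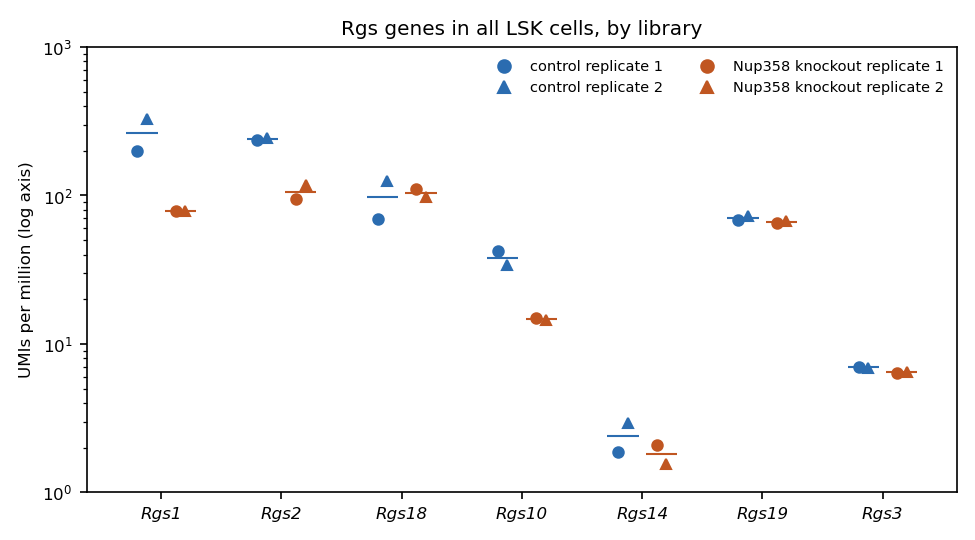
CPM (log axis) of the 7 Rgs genes in all LSK cells, with each point 1 library and each line the mean of the 2 libraries of a genotype. Rgs1, Rgs2 and Rgs10 lie lower in both knockout libraries than in both control libraries, Rgs3 and Rgs19 do so by a small margin, and Rgs14 and Rgs18 overlap.

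The other 4 members differed less. Rgs18 ranged from 69.9 in control replicate 1 to 125 in control replicate 2, and the knockout libraries at 111 and 97.2 lay between them, giving a log2 value of 0.06 ± 0.28. Without control replicate 2 that value was 0.56 and without control replicate 1 it was −0.33. Rgs19 was at 68.7 and 72.7 in the control and 64.8 and 67.2 in the knockout libraries, and Rgs3 at 7.0 and 6.90 against 6.38 and 6.48, so that both fell just outside the control range on the low side, with log2 values of −0.14 ± 0.14 and −0.15 ± 0.17. Rgs14 was the least counted member, with 55 to 110 UMIs per library, at 1.86 and 2.92 in the control and 2.08 and 1.56 in the knockout libraries, which overlapped (log2 −0.41 ± 0.34).

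All 7 members passed the filter on low counts, which left 13779 genes. The edgeR quasi-likelihood fit over these genes called 1.37% of them higher and 2.07% lower in the knockout at an adjusted p under 0.05, and among the members it put 3 on the lower side, which nothing is read from because this contrast chose them. The median log2 value was −0.41 over the members and −0.01 over all genes tested. With the copied barcodes kept, the values were −1.52 for Rgs1, −1.04 for Rgs2 and −1.28 for Rgs10, and with B cell-like cells and cells of mixed identity left out they were −1.85, −1.24 and −1.33. Without control replicate 2 the Rgs1 value was −1.37, and without control replicate 1 it was −2.13. Of the 3 neighbors on chromosome 1, Rgs1 and Rgs2 were thus lower in both knockout libraries and Rgs18 was not.

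Across cell types, Rgs1 was highest in stem-like cells of the control libraries. Its level in stem-like cells was 568 and 659 CPM in the control and 121 and 103 in the knockout libraries, the highest of the tested gates in 3 of the 4 libraries, the exception being knockout replicate 2 with 159 in megakaryocyte-primed cells. In the untested basophil and mast-primed cells, Rgs1 was at 301 and 511 in the control and 279 and 227 in the knockout libraries. From 7 to 23 cells per library, Rgs1 there lay above the stem-like level in both knockout libraries. In neutrophil-primed cells it was 74.1 and 57.7 in the control and 27.2 and 36.7 in the knockout libraries, below the stem-like level in 4 of 4 libraries (log2 −2.42 ± 0.29, adjusted p = 2.55e-08, edgeR quasi-likelihood test with the library as a block, as for all gate comparisons). Lymphoid-primed cells were lower as well, at 217 and 301 in the control but only 29.3 and 28.6 in the knockout libraries (log2 −1.27 ± 0.27, adjusted p = 0.000764). Erythroid-primed cells held 84.4 and 154 in the control and 81.2 and 53.9 in the knockout libraries (log2 −1.55 ± 0.31, adjusted p = 0.000124). In B cell-like cells, with 20 or more cells in the knockout libraries only, Rgs1 was at 15.1 and 12.3 (log2 −3.30 ± 0.53, adjusted p = 1.05e-05). Megakaryocyte-primed cells, at 373 and 338 in the control and 103 and 159 in the knockout libraries, did not pass the test against stem-like cells (log2 −0.24 ± 0.27). Nor did unprimed cells, at 301 and 447 in the control and 75.8 and 75.4 in the knockout libraries (log2 −0.58 ± 0.25, adjusted p = 0.0762). Each gate value is 1 fit over the libraries of both genotypes together. Megakaryocyte-primed cells lay below stem-like cells in both control libraries, but in the knockout only in replicate 1. Mitotic unprimed cells of the knockout libraries, at 105 and 97.1, lay close to the stem-like level there.

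**Figure D2:**
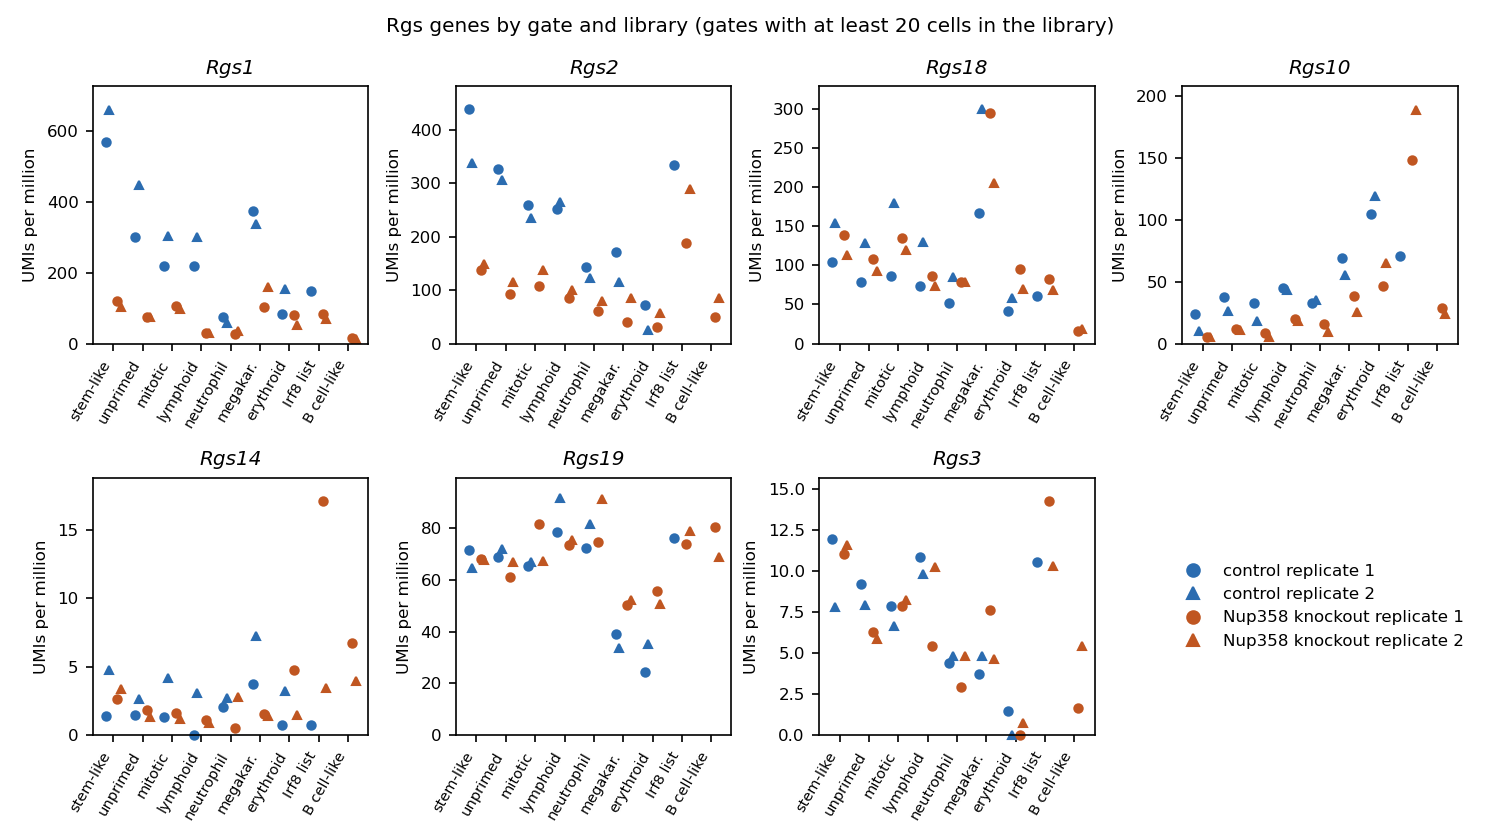
CPM of each Rgs gene by gate, with each point 1 library that holds at least 20 cells of that gate (control in blue, knockout in orange). The basophil and mast-primed gate is not shown. Rgs1 and Rgs2 are high in control stem-like cells, Rgs10 rises from stem-like to erythroid-primed cells, and Rgs18 peaks in megakaryocyte-primed cells.

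Rgs2 was also high in stem-like cells. It was at 438 and 338 CPM in control and 138 and 149 in knockout stem-like cells. The basophil and mast-primed cells, which were not tested, held more in every library. Rgs2 was there at 499.5 and 405.5 in the control and 272 and 318 in the knockout libraries, from 7 to 23 cells per library. Erythroid-primed cells held the least, 72.8 and 25.7 in the control and 30.2 and 57.6 in the knockout libraries (log2 −2.07 ± 0.21, adjusted p = 2.83e-09, lower in 4 of 4 libraries), followed by megakaryocyte-primed cells (log2 −1.24 ± 0.18, adjusted p = 7.83e-06) and neutrophil-primed cells (log2 −1.07 ± 0.17, adjusted p = 3.47e-06). The Irf8-list gate kept Rgs2 at 335 in control replicate 1 and 188 and 288 in the knockout libraries and did not pass the test (log2 0.35 ± 0.20). Rgs3, counted thinly, was at 7.79 to 11.96 CPM in stem-like cells of the 4 libraries and lower in neutrophil-primed cells at 2.91 to 4.84 (log2 −1.14 ± 0.22, adjusted p = 6.03e-05). In erythroid-primed cells Rgs3 gave 3 UMIs in all, 2 in control replicate 1 and 1 in knockout replicate 2. The 0 UMIs of control replicate 2 and knockout replicate 1 allow up to 9.66 and 4.78 CPM, from 3 counts per library and for counting error only. The test called Rgs3 lower in erythroid-primed cells (adjusted p = 8.34e-07), but at these counts the fitted fold depends on the prior count and is not given as a size.

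Rgs10 ran the other way. Its lowest levels were in stem-like cells, 24.2 and 10.2 CPM in the control and 5.26 and 5.10 in the knockout libraries, from 10 to 87 UMIs. It was higher in 4 of 4 libraries in erythroid-primed cells, at 105 and 119 in the control and 46.2 and 65.1 in the knockout libraries (log2 2.99 ± 0.38, adjusted p = 1.96e-07). Megakaryocyte-primed cells were at 69.1 and 55.5 in the control and 38.0 and 25.5 in the knockout libraries (log2 2.02 ± 0.40, adjusted p = 0.000358), and lymphoid-primed and neutrophil-primed cells rose less (log2 1.53 ± 0.42 and 1.22 ± 0.37, adjusted p = 0.00669 and 0.00538). Without control replicate 2 these last values were 1.37 and 1.01 and were not called (adjusted p = 0.0696 and 0.0724). Among the gates, the Irf8-list gate was the only one where the knockout libraries were above the control, at 148 and 189 against 70.9 in control replicate 1. Its Rgs10 level was far above that of stem-like cells (log2 3.47 ± 0.44, adjusted p = 5.92e-07, higher in 3 of 3 libraries with 20 or more cells). Control replicate 2 held only 9 cells of that gate, so the difference there (log2 1.20 ± 0.32) rests on 3 libraries, and with Siglech, Mpo and Ly6a shifting as given above, genotype and the kind of cell in the gate cannot be told apart. Rgs14, the relative of Rgs10, did not pass the test in any gate comparison and gave 0 to 10 UMIs per library in stem-like, erythroid-primed, lymphoid-primed and megakaryocyte-primed cells. Of Rgs14 in lymphoid-primed cells of control replicate 1, 0 UMIs allow up to 2.71 CPM.

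Rgs18 was highest in megakaryocyte-primed cells, at 167 and 299 CPM in the control and 295 and 205 in the knockout libraries. Stem-like cells held 104 and 155 in the control and 138 and 113 in the knockout libraries, lower than megakaryocyte-primed cells in 4 of 4 libraries (log2 0.94 ± 0.11, adjusted p = 1.24e-07). The genotypes overlapped in both gates. Erythroid-primed cells (log2 −0.75 ± 0.13, adjusted p = 2.09e-05) and neutrophil-primed cells (log2 −0.57 ± 0.11, adjusted p = 4.63e-05) lay below stem-like cells, and B cell-like cells far below at 16.8 and 18.2 (log2 −2.63 ± 0.20, adjusted p = 1.08e-11). Rgs19 varied least, at 64.7 to 71.8 CPM in stem-like cells and 72.2 to 91.3 in neutrophil-primed cells (log2 0.46 ± 0.12, adjusted p = 0.00194), and it was lower in megakaryocyte-primed cells (log2 −0.54 ± 0.15, adjusted p = 0.00781) and in erythroid-primed cells (log2 −0.58 ± 0.16, adjusted p = 0.00407).

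Counted over the members, the erythroid-primed comparison called 1 of 7 higher and 5 lower, against 21.7% and 23.8% of the 11258 genes tested. The neutrophil-primed comparison called 2 higher and 4 lower (27.5% and 31.6% of genes), the megakaryocyte-primed 2 and 3 (11.9% and 13.5%), the lymphoid-primed 2 and 3 (12.9% and 12.6%), the B cell-like 1 and 3 (16.2% and 15.7%), the Irf8-list gate 1 and 2 (10.1% and 8%) and the unprimed cells 1 and 1 (14.4% and 15.4%). The median log2 value over the members was −0.75 in erythroid-primed, −0.57 in neutrophil-primed and −0.24 in megakaryocyte-primed cells, and −0.06, −0.06 and −0.01 over all genes. The 5 calls in lymphoid-primed cells and the 2 in unprimed cells were the least stable. Leaving out any 1 library left 2 or 3 and 0 or 1 of them, and Rgs18 and Rgs19 in lymphoid-primed cells (log2 −0.38 ± 0.12 and 0.35 ± 0.13) were called with adjusted p of 0.0158 and 0.0498. Without control replicate 1, Rgs3 and Rgs19 in megakaryocyte-primed cells and Rgs19 in erythroid-primed cells were not called (adjusted p = 0.113, 0.117 and 0.316). Mitotic unprimed cells against other unprimed cells gave 0 member calls in edgeR (3.7% of genes higher and 2.86% lower), where 1 member, Rgs18, was under an unadjusted p of 0.05, and DESeq2 called Rgs18 higher (log2 0.28, adjusted p = 0.0295).

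Within the gates, the knockout minus control difference was read again, as a description, among cells past the same marker limits. Cells of a gate could still differ in other genes, 2 of which were named after their values were seen. Kit in lymphoid-primed cells was at 68.6 to 78.7 CPM in the control and 36.8 to 41.3 in the knockout libraries. Mpo in neutrophil-primed cells was at 4848 to 5701 and 2859 to 2892. Genotype and the kind of cell within a gate thus cannot be told apart. Of 7 gates with 20 or more cells in every library, both knockout libraries lay below both control libraries in 7 for Rgs1, in 7 for Rgs10 and in 6 for Rgs2, which overlapped in erythroid-primed cells. Of all genes tested in a gate, the share with both knockout libraries below both controls was 24.2% in stem-like, 30.1% in unprimed, 24% in mitotic unprimed, 24.4% in neutrophil-primed, 21.9% in megakaryocyte-primed, 15.9% in erythroid-primed and 24.8% in lymphoid-primed cells, and nothing is read from the counts, since this contrast chose the members. Rgs14 lay below in 1 gate (megakaryocyte-primed cells), Rgs3 in 1 (unprimed cells) and Rgs19 in 2 (lymphoid-primed and unprimed cells). Rgs1 was 5.78-fold lower in stem-like cells (log2 −2.53 ± 0.21), 9.04-fold lower in lymphoid-primed cells (log2 −3.18 ± 0.25), 2.09-fold lower in neutrophil-primed cells (log2 −1.06 ± 0.22) and 1.81-fold lower in erythroid-primed cells (log2 −0.86 ± 0.35). Rgs2 ran from log2 −1.58 ± 0.17 in unprimed cells to −0.34 ± 0.37 in erythroid-primed cells. Rgs10 was more even, from log2 −2.09 ± 0.31 in mitotic unprimed cells to −1.03 ± 0.29 in erythroid-primed cells. Both knockout libraries lay above both controls for Rgs18 in erythroid-primed cells (log2 0.74 ± 0.33), for Rgs3 in mitotic unprimed cells (log2 0.11 ± 0.30) and for Rgs19 in erythroid-primed (log2 0.88 ± 0.35), megakaryocyte-primed (log2 0.49 ± 0.25) and mitotic unprimed cells (log2 0.16 ± 0.17), where 22.9%, 18.1% and 25.2% of all genes did so.

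**Figure D3:**
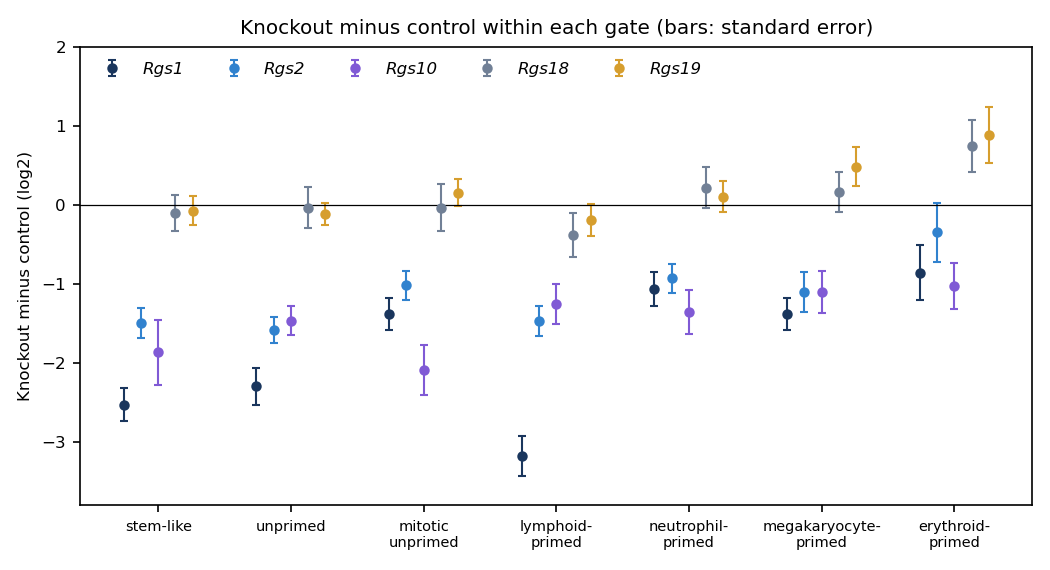
Knockout minus control on the log2 scale within each gate for 5 Rgs genes, with each point the edgeR estimate from 2 libraries per group and each bar its standard error. Rgs1, Rgs2 and Rgs10 lie below 0 in every gate shown, Rgs1 deepest in lymphoid-primed and stem-like cells, and Rgs18 and Rgs19 scatter about 0 and are highest in erythroid-primed cells.

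How far that difference varied between gates is given as the value in a primed gate minus that in stem-like cells, with no test, from a fit with the library as a block over 10565 genes and 6 members, since Rgs14 did not pass the filter there. A positive value of Rgs1, Rgs2 or Rgs10 is a smaller fall than in stem-like cells. For Rgs1 the value was 1.76 ± 0.32 in erythroid-primed, 1.36 ± 0.29 in neutrophil-primed, 1.16 ± 0.24 in megakaryocyte-primed and −0.66 ± 0.30 in lymphoid-primed cells. For Rgs2 it ran from −0.03 ± 0.21 in lymphoid-primed to 1.09 ± 0.30 in erythroid-primed cells, and for Rgs10 from 0.56 ± 0.47 in neutrophil-primed to 1.02 ± 0.44 in erythroid-primed cells. Rgs18 and Rgs19 had their highest values in erythroid-primed cells too, at 0.71 ± 0.23 and 0.98 ± 0.28. The median over all genes lay between −0.07 and 0.00 in the 4 gates. Without knockout replicate 2, Rgs1 was at 0.58 in megakaryocyte-primed and Rgs2 at 0.51 in erythroid-primed cells, and without control replicate 1, Rgs19 was at 0.43 and Rgs2 at 2.05 in erythroid-primed cells.

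Immediate early genes are fast response genes such as Fos, Jun and Egr1 that a cell switches on within minutes of a stimulus or of handling. Their summed level in all LSK cells was also lower in the knockout libraries. Their list of 16 was chosen with earlier results of these data known, so its counts in the knockout comparison are a description. Of the 16, 9 fell in the knockout in all LSK cells and 7 did not pass the test in edgeR. Of all genes, 2.07% were called lower. In edgeR 15 of the list were under an unadjusted p of 0.05, and DESeq2 called 14. The list had a median log2 of −1.27 against −0.01 over all genes. Egr1 (log2 −2.23 ± 0.20, adjusted p = 0.00674) and Nr4a1 (log2 −2.08 ± 0.41, adjusted p = 0.0464) had the largest falls of those called. The summed level of the list was 4755 and 5032 CPM in the control and 1864 and 2168 in the knockout libraries. In stem-like cells it was 10716.5 to 10720.4 in the control and 2642 to 2724 in the knockout libraries, in neutrophil-primed cells 2251 to 2929 and 1080 to 1382, and in erythroid-primed cells 3331 to 4293 and 2092 to 2377. In lymphoid-primed cells, where the fold of Rgs1 was widest, it was 3925 to 3957 and 1525 to 1863. All 16 genes had UMIs in all 4 libraries.

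To read the members at like levels of these genes, stem-like, unprimed and mitotic unprimed cells were split by the immediate early UMIs each cell held per 10000, a split added after the data were seen. Below 20 per 10000, with summed levels of 1026 to 1115 in the control and 1088 to 1173 in the knockout libraries, Rgs1 was at 79.3 and 96.7 CPM in the control and 59.2 and 56.5 in the knockout libraries, a mean ratio of 1.52. Rgs2 was at 132 and 117 in the control and 77.8 and 91.5 in the knockout libraries, a mean ratio of 1.47. Rgs10 was at 33.2 and 24.2 in the control and 10.6 and 10.3 in the knockout libraries, a mean ratio of 2.74. Rgs19 was at 69.0 and 82.2 in the control and 67.0 and 68.4 in the knockout libraries. Nothing is read from whether the libraries overlap here, since the share of all genes was not counted in these groups of cells. The ratios are of mean CPM in these gates alone. Gate make-up and depth per cell were not matched within a group. The lowest group held 614 cells with 4491983 UMIs in control replicate 1 and 788 cells with 18206000 UMIs in knockout replicate 1. The 3.47, 2.31 and 2.66 of Rgs1, Rgs2 and Rgs10 are fitted over all LSK cells and are not a like measure. Between 20 and 40 per 10000 the ratios were 1.92 for Rgs1, 1.64 for Rgs2 and 3.25 for Rgs10. Between 40 and 80 per 10000 they were 2.95 for Rgs1, 1.87 for Rgs2 and 2.21 for Rgs10. At 80 or more they were 8.84 for Rgs1, 2.95 for Rgs2 and 0.383 for Rgs10, from only 27 and 32 knockout cells.

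In the control libraries Rgs1 climbed with the immediate early level, from 79.3 and 96.7 in the lowest of the 4 groups of cells to 585 and 761 in the highest, and Rgs2 from 132 and 117 to 539 and 432. Rgs10 did not follow it in the control, at 33.2 and 24.2 in the lowest and 36.0 and 20.5 in the highest group. The groups pool gates that differ in both respects. In the control, stem-like cells held 10716.5 to 10720.4 CPM of the list and unprimed cells 5789 to 5907. Rgs1 was at 568 and 659 in the former and at 301 and 447 in the latter. The part of gate make-up and depth in the climb was not tested. At 40 to 80 per 10000, Rgs1 was at 156 and 123 in the knockout and at 327 and 495 in the control libraries. The highest group held only 27 and 32 knockout cells against 1710 and 303 control cells. Those knockout cells held 126833 and 134583 UMIs of all genes, so the level of a single gene there rests on few UMIs. In them Rgs1 was at 63.1 and 89.2, Rgs2 at 166 and 163, and Rgs10 above the control at 110.4 and 37.2. Against stem-like cells, 16 of the 16 immediate early genes were lower in neutrophil-primed, 14 in lymphoid-primed, 10 in erythroid-primed and 9 in megakaryocyte-primed cells, where 31.6%, 12.6%, 23.8% and 13.5% of all genes were. In unprimed cells 8 were lower (15.4% of genes), in the Irf8-list gate 3 (8%), and in B cell-like cells, where Rgs1 was at its lowest, 2 were lower (15.7%) and 3 higher (16.2%), with a median log2 of 0.19. B cell-like cells reached 20 cells in the knockout libraries only. Stem-like cells held 2642 to 2724 CPM of the list there, against 10716.5 to 10720.4 in the control, so that comparison is not like the others. The part of the immediate early genes in the results for the Rgs genes was not tested.

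**Figure D4:**
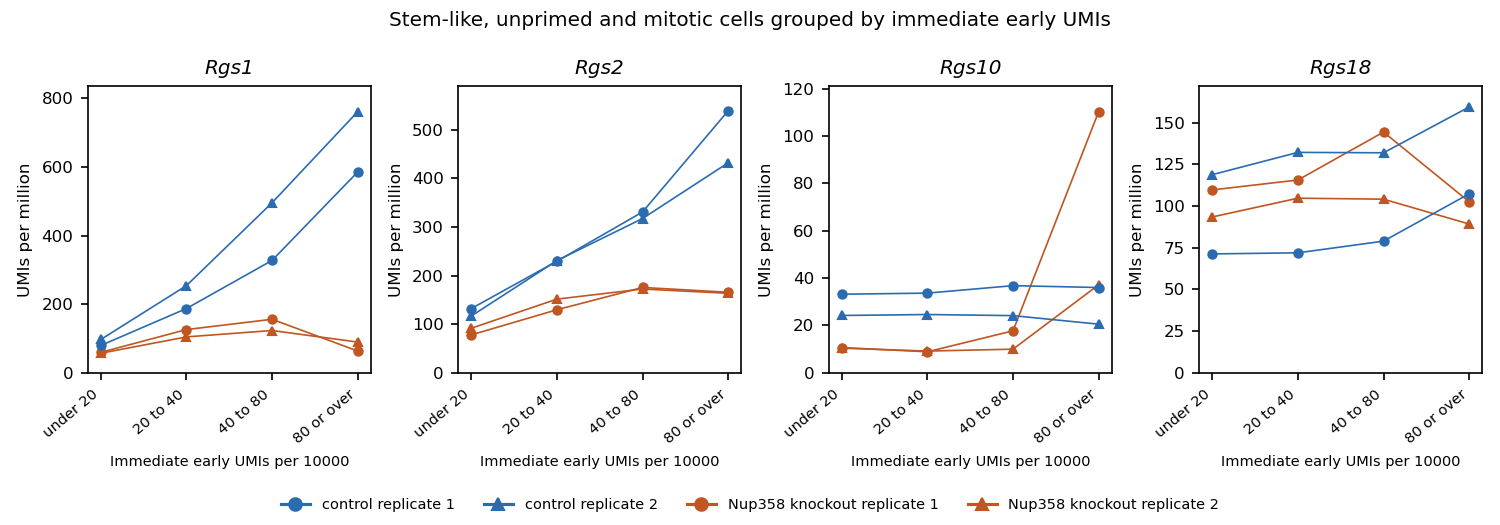
CPM of 4 Rgs genes in stem-like, unprimed and mitotic unprimed cells grouped by immediate early UMIs per 10000 UMIs of the cell, with each line 1 library. Rgs1 and Rgs2 climb from left to right in the control libraries, while in the knockout libraries they rise over the first 3 groups and are lower in the last, Rgs10 is flat in the control, and the last knockout points rest on 27 and 32 cells.

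The other genes of the pathway are read against the 1.37% of all genes called higher and 2.07% called lower in the knockout. Their lists were also chosen with earlier results of these data known. Of 18 other genes of the RGS family, its relatives and partners, 7 passed the filter and none of these 7 was called by edgeR or DESeq2, with 0 under an unadjusted p of 0.05 in edgeR and with log2 values from −0.42 ± 0.25 for Rgs7bp to 1.21 ± 0.52 for Rgs9. Rgs12, the nearest relative of Rgs10 and Rgs14 among them and named after its values were seen, was at 22.0 and 13.2 CPM in the control and 16.5 and 18.1 in the knockout libraries. Of 42 G protein-coupled receptors tested, 1 rose, Ccr9 (log2 3.65 ± 0.52, adjusted p = 0.0205), a chemokine receptor of lymphoid cells that was also a marker of the lymphoid gate, and 1 fell, the leukotriene receptor Ltb4r1 (log2 −2.11 ± 0.18, adjusted p = 0.00626), while 16 were under an unadjusted p of 0.05 and DESeq2 called 7. Of 23 second messenger enzymes, Prkar2a, a regulatory subunit of protein kinase A, rose (log2 0.86 ± 0.17, adjusted p = 0.0435) and the cyclic AMP phosphodiesterase Pde4d fell (log2 −0.73 ± 0.15, adjusted p = 0.0473), and DESeq2 called 3. Ltb4r1 and Pde4d were higher in neutrophil-primed than in stem-like cells (log2 3.29 ± 0.37 and 0.77 ± 0.24). Neutrophil-primed cells made up less of the knockout libraries, and their part in these falls was not tested. Of 13 alpha subunits, 11 beta and gamma subunits and 7 receptor kinases and arrestins, edgeR and DESeq2 called none, with medians of 0.04, −0.14 and 0.00 on the log2 scale, and 1 gene of each list was under an unadjusted p of 0.05 in edgeR.

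Between cell types, other genes of the pathway differed as follows. In neutrophil-primed against stem-like cells, 4 of 32 receptors were higher (27.5% of all genes), led by Ltb4r1 (log2 3.29 ± 0.37) and Ccr1 (log2 2.45 ± 0.50), and 15 lower (31.6% of all genes), led by the sphingosine phosphate receptor S1pr1 (log2 −3.71 ± 0.32) and the thromboxane receptor Tbxa2r (log2 −3.53 ± 0.28). In megakaryocyte-primed cells 6 receptors were higher (11.9% of all genes), led by the thrombin receptor family member F2rl2 (log2 5.03 ± 0.55) and the ADP receptor P2ry1 (log2 3.47 ± 0.28), and 6 lower (13.5%). In erythroid-primed cells 5 were higher and 12 lower (21.7% and 23.8% of all genes), and Gna14, an alpha subunit of the Gq family, rose (log2 5.27 ± 0.70). The gamma subunit Gng11 was lower in neutrophil-primed (log2 −2.70 ± 0.16), lymphoid-primed (log2 −3.61 ± 0.23) and erythroid-primed cells (log2 −2.10 ± 0.22). Rgs7bp, which anchors a different group of RGS proteins at the membrane, was lower than in stem-like cells in all 3 of these gates and in megakaryocyte-primed cells, with log2 values from −3.31 ± 0.50 to −1.26 ± 0.31. All of these passed an adjusted p of 0.05 in the edgeR fit.

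The genes most like each member were taken by Pearson's r of log2(CPM + 1) over the 34 sums of a gate and a library with 20 or more cells, among 11257 genes. The 34 points share 4 libraries, their depth and their cells, so r is given as a description. The points come from both genotypes, so r also holds the knockout difference that chose the members. For Rgs1 the genes most like it were Acsl3 (r = 0.87), Myct1 (r = 0.87) and the immediate early gene Nr4a1 (r = 0.85), and for Rgs2 they were Orai1, Aph1c and Gnai2 (r = 0.85 each). For Rgs18 they were Angpt1, Ctla2a and Osbpl8 (r = 0.85 to 0.87), for Rgs3 Il21r, Hmox2 and Arhgef6 (r = 0.88 to 0.90), and for Rgs19 Cd53, H13 and Lcp1 (r = 0.84 to 0.86). Rgs10 and Rgs14 had looser matches, Scand1, Zeb2 and Slc25a38 for Rgs10 (r = 0.73 to 0.76) and Bcl7b, 3110002H16Rik and H2-D1 for Rgs14 (r = 0.69 to 0.73). Among the members themselves, Rgs2 and Rgs3 were the most alike pair (r = 0.75), Rgs1 went with Rgs18 (r = 0.64) and with Rgs2 (r = 0.62), and Rgs10 and Rgs19 were the most opposed (r = −0.38).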

How the data were processed

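The 4 libraries were made from sorted LSK cells with a 10x Genomics 3′ kit. The authors aligned reads to mm10 and counted UMIs with Cell Ranger 3.1, as the submitters' processing notes name them, and deposited whole-number counts per gene and called cell barcode without normalization. Groups came from the labels. The members and gene lists were chosen with earlier results of these data known, and the gate limits were set after the data, member levels at trial limits included, had been seen.

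Cells with fewer than 200 genes or over 10% mitochondrial UMIs were left out, as were barcodes with at least 3 times the UMIs in another library. Scrublet, an alternative only, called 9 doublets and did not work on these data. A cell entered a gate with at least 3 marker UMIs and, per 10000 UMIs, at least 40 (neutrophil), 10 (Irf8 list, lymphoid, B cell-like, stem-like), 8 (erythroid) or 5 (megakaryocyte, basophil and mast). The shallow control replicate 1 thus met the minimum less easily. The 711 cells past several primed limits, the mixed cells, were left out, stem-like cells were taken from cells in no primed gate, and mitotic cells were unprimed cells with at least 40 UMIs of G2/M genes per 10000. Of each gate, 2.76% (B cell-like) to 31.1% (stem-like) of cells lay within 20% of the limit.

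UMIs were summed per library, or per gate and library with at least 20 cells, and tested in R 4.3.3 with edgeR 4.0.16 (trimmed mean of M-values, filter on low counts, quasi-likelihood test, Benjamini-Hochberg over all genes at 0.05). Gate fits had the library as a block. The planned test of gate by genotype is given as values only, since the knockout contrast chose the members. DESeq2 1.42.0 was an alternative. Python 3.11.15 with scanpy 1.11.5 read the cells. The tests were checked on simulated counts. There the knockout test found 56.5% of genes given a log2 change of 1 and 92.5% of those given 2. A gene that was not called may thus still differ. The gate test was checked on erythroid-primed and stem-like cells alone, where it found 66.5% and 89.5%. P-values of the knockout fit measure the spread between libraries. Those of the gate fits measure the spread of the gate sums left after the library block, and these sums come from only 4 libraries. Positions came from GENCODE M21 on the same build, which held 99% of the identifiers. The text names the members, Ranbp2, the 3 genes most like each member and, of each list and comparison, some or all of the 2 called genes with the largest rise and the 2 with the largest fall.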

Additional observations from a re-analysis of the deposited data

How the results depend on the processing

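The 474 genes called between knockout and control became 946 with DESeq2, 1933 without the filter on low counts and 372 to 2890 with 1 library left out, and the 4 pathway genes beside the immediate early list became 10, 22 and 3 to 23. The labels do not say whether libraries of the same replicate number shared a litter or a day. Their deviations correlated at −0.12, but 2 pairs are too few to tell whether they were paired. With the replicate number as a block (replicate block) 1257 genes and 15 pathway genes were called, and the log2 values were −1.75 for Rgs1, −1.22 for Rgs2 and −1.40 for Rgs10. A crossed pairing, chosen after seeing the data, called 1735 and 18. Of the gate comparisons, the member calls in B cell-like cells (4) were 4 to 5 with 1 library left out, in erythroid-primed cells (6) 5 to 6, in neutrophil-primed cells (6) 5 to 6, in megakaryocyte-primed cells (5) 3 to 5 and in the Irf8-list gate (3) 2 to 3, or 1 without the library block. Lymphoid-primed calls (5) became 2 with gate limits doubled or halved, 0 without the library block and 2 to 3 with 1 library left out. Unprimed calls (2) became 4 with copied barcodes kept, 0 with limits halved or without the library block, 1 with mixed cells assigned and 0 to 1 with 1 library left out. Mitotic calls (0) became 1 with DESeq2 or without the filter and 0 to 1 with 1 library left out. The knockout difference of a primed gate minus that of stem-like cells had no test. With 1 library left out it ran for Rgs1 from 1.22 to 2.02 in erythroid-primed, 1.06 to 1.71 in neutrophil-primed and 0.58 to 1.46 in megakaryocyte-primed cells, and with gate limits doubled it could not be fitted, since too few cells remained. Rgs18 between knockout and control (0.06) ran from −0.33 to 0.56 with 1 library left out, so its sign turned. Rgs2 ran from −1.39 to −1.04 between knockout and control with 1 library left out. The causes were not tested.

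In the gate comparisons the sign turned only for values that had not passed the test. With 1 library left out these were Rgs14 in megakaryocyte-primed (−0.38 to 0.73), erythroid-primed (−0.22 to 0.067), neutrophil-primed (−0.76 to 0.0011) and mitotic cells (−0.20 to 0.040), Rgs1 in mitotic cells (−0.26 to 0.081), Rgs3 in lymphoid-primed (−0.17 to 0.071) and mitotic cells (−0.071 to 0.24), and Rgs19 in mitotic cells (−0.081 to 0.078). With limits doubled they were Rgs3 in lymphoid-primed (0.42), Rgs14 in megakaryocyte-primed (−0.44) and mitotic cells (0.11), and Rgs19 in unprimed cells (−0.0078). With limits halved they were Rgs14 in erythroid-primed (0.024) and unprimed cells (0.035), Rgs3 in lymphoid-primed (0.54) and Irf8-list cells (−0.091), and Rgs1 in megakaryocyte-primed cells (0.0022), and with mixed cells assigned Rgs3 in Irf8-list cells (−0.078). Few UMIs of Rgs14 and Rgs3 limit what their gate values can show.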
